A study of Homo sapiens with 6 samples.

Results

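The genes described here are AP-1 subunits and other immediate early genes: FOS, FOSB, FOSL1, FOSL2, JUN, JUNB, JUND, ATF3, EGR1 and IER2. They were taken by symbol, by a rule that uses no measured value, but the list was chosen with earlier results of these data known. All 10 were found among the 58825 genes of the count table. RNA-seq had been carried out on HGC-27, a human gastric cancer cell line, in 6 libraries, of which 3 carried the genotype label GC0643 overexpression and 3 the label Vector control. GC0643 is a gene sequence that the study named from its pangenome of gastric cancer, and the question was which transcripts differ when it is overexpressed. The overexpressing line was a stable line made by retroviral infection and selected with puromycin, and whether either line is a clone or a pool is not stated in the sources used here. Both lines were grown in medium with fetal bovine serum, which is itself a classical inducer of these genes. Whether the libraries came from separate cultures is not stated either, so the p-values below measure only the spread between these libraries. GC0643 was not analysed here, so the counts do not check the labels.

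AP-1 is a transcription factor made of a pair of proteins joined by a leucine zipper. FOS proteins pair only with partners such as JUN proteins, whereas JUN proteins can also pair with each other or with members of the ATF family. Many of these genes are transcribed within minutes of serum, growth factors or stress, without new protein synthesis, and their RNAs are short-lived, so that their levels can change quickly. EGR1 and IER2 are immediate early genes that do not belong to AP-1: EGR1 is a zinc finger transcription factor and IER2 a small nuclear protein.

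Library totals ranged from 20376722 to 21629573 counts in GC0643 overexpression and from 20489033 to 24069166 in Vector control. Levels are given as CPM, the count of a gene scaled to a common library total after TMM normalisation for composition. Differences are log2 fold changes, GC0643 overexpression over Vector control, from edgeR's quasi-likelihood model. The Benjamini-Hochberg adjustment of its p-values covered the 19528 genes that passed a filter on low counts. None of these genes reached an adjusted p under 0.05 in that test, while 3581 had an unadjusted p under 0.05, and the other tests run called 16 (likelihood ratio), 1 (DESeq2) and 0 (limma voom) after adjustment. The label of a gastric cancer line was set against markers. Of the epithelial markers only KRT8 was over 1 CPM (3.87 to 7.84 CPM in GC0643 overexpression and 5.03 to 6.45 CPM in Vector control), with EPCAM, CDH1, KRT18 and KRT19 below that. The gastric markers MUC5AC, MUC6, TFF1, TFF2 and GKN1 summed to under 1 CPM in every library, TFF2 and GKN1 being at 0 throughout. Of the mesenchymal markers, the intermediate filament gene VIM stood at 3090 to 3370 CPM in GC0643 overexpression and 3060 to 3280 CPM in Vector control. CDH2 was under 1 CPM, at 0.0493 to 0.607 CPM in GC0643 overexpression and 0.208 to 0.246 CPM in Vector control. FN1 reached at most 67.6 CPM in GC0643 overexpression and 45.1 CPM in Vector control. Of the fibroblast markers, the collagen genes COL1A1 and COL3A1 stood at 1490 to 2840 CPM over the 6 libraries. DCN reached at most 158 CPM and PDGFRB at most 18.4 CPM in GC0643 overexpression, against 141 and 26.7 CPM in Vector control. Markers of endothelium, lymphocytes, myeloid cells and erythroid cells each summed to under 1 CPM. Libraries differed by the GC content of transcripts. In Vector control replicate 3 the median centred log2 CPM was −0.31 for genes with a transcript GC content under 45%. It was 0.23 there for genes at 55% or more, a wider split than in any other library. Vector control replicate 1 split in the same direction (−0.216 and 0.115). The GC0643 overexpression libraries split in the opposite direction (0.202 and −0.136, 0.0747 and −0.0389, 0.196 and −0.105 in replicates 1 to 3). Vector control replicate 2 (0.0789 and −0.0353) had nearly the values of GC0643 overexpression replicate 2. Results that rest on Vector control replicate 3 are given with and without it below.

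Promoter windows from RefSeq (GRCh38.p14, 250 bases before each start and 50 from it on) were matched for 9 members, with 10 windows because ATF3 has 2. They were searched on both strands for the AP-1 site TGANTCA, the cyclic AMP response element TGACGTCA, the variant TGACATCA known from the JUN promoter, the sequence TGATGCAA, which is a core of sites for ATF4 with C/EBP proteins, and the CArG box, at which serum response factor binds. No letters of these motifs overlapped among the matches found in the members. Short stretches are printed here for JUN and ATF3, the genes farthest above the other libraries in Vector control replicate 3, for EGR1 as the classical serum response gene, and for JUND as the most abundant member. Each reads 5′ to 3′ along the gene's strand, and capitals mark the matched motif (TGACATCA in JUN and ATF3, 2 CArG boxes in EGR1, TGACGTCA in JUND).
JUN (chr1:58784082-58784139, minus strand): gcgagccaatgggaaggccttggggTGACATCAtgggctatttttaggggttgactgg
ATF3 (chr1:212565259-212565316, plus strand): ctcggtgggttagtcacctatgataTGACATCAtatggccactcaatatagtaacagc
EGR1 (chr5:138465349-138465430, plus strand): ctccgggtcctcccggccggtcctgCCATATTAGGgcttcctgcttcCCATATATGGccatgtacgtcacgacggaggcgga
JUND (chr19:18281790-18281847, minus strand): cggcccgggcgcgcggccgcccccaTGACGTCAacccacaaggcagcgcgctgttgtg

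The matched TGACATCA lay from −67 to −60 relative to the JUN start and from −123 to −116 relative to the upstream ATF3 start. Of all 35116 windows, 2.61% held this sequence, and 2 of the 10 member windows did. The sequence was searched for because it is known from the JUN promoter, so the match in JUN was given in advance. The 2 counts are therefore not a test of enrichment, and a link of this sequence to the levels of JUN and ATF3 was not tested. The CArG boxes of EGR1 lay from −105 to −96 and from −83 to −74, and 1.29% of all windows held at least one match to that motif. TGACGTCA stood from −200 to −193 in JUND and in 1.85% of all windows. The AP-1 site itself was matched in 1 member window, that of FOSL2 from position 5 to 11, and in 7.71% of all windows. TGATGCAA was matched in 0.866% of all windows and in no member window. These are matches of letters, and which start site the cells used was not measured.

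Levels can be set side by side between genes only per length, as CPM per kilobase of the canonical transcript. On this scale JUND was the highest member with a mean of 89.28 over the 6 libraries, at the 94.8th percentile of the genes tested. JUNB followed at 42.37 CPM per kilobase and IER2 at 40.38. ATF3 (13.6), EGR1 (10.53) and JUN (9.44) formed a middle group in CPM per kilobase, and FOSL2 (4.90) and FOS (3.96) came next. FOSB stood at 0.318 CPM per kilobase and FOSL1 at 0.263, at percentiles 4.73 and 3.64 of the genes tested. Between neighbours in this order, the ranges over the 6 libraries were apart only for JUND over JUNB, IER2 over ATF3, and FOS over FOSB. ATF3 was above EGR1 in 3 of 6 libraries, FOSL2 above FOS in 4 of 6 and FOSB above FOSL1 in 3 of 6, so their order is not settled by these libraries.

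**Figure D1:**
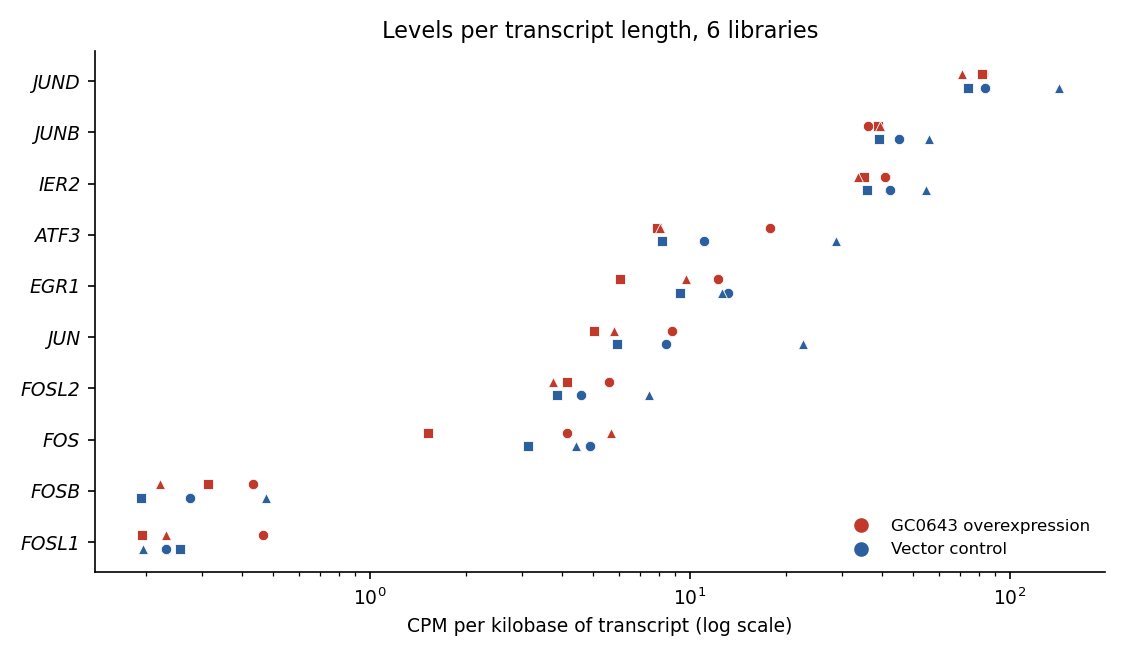
CPM per kilobase of the canonical transcript (log scale) for the 10 genes, in descending order of the mean over 6 libraries. Points are single libraries, GC0643 overexpression in red above Vector control in blue. Circles are replicate 1, squares replicate 2 and triangles replicate 3, and the circle and square of JUND in GC0643 overexpression coincide. JUND, with a mean of 89.28 CPM per kilobase, heads the order, and FOSB and FOSL1 are more than 10 times below FOS.

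The JUN family was far more abundant than the FOS family in every library. Summed over JUN, JUNB and JUND, the level was 127, 126 and 116 CPM per kilobase in GC0643 overexpression replicates 1 to 3, against 137, 119 and 221 in Vector control. The sum over FOS, FOSB, FOSL1 and FOSL2 was 10.6, 6.16 and 9.89 CPM per kilobase in GC0643 overexpression, against 9.96, 7.42 and 12.6 in Vector control. For both families Vector control replicate 3 had the highest sum, and the groups overlapped. The ratio of the JUN to the FOS family was 12, 20.4 and 11.7 in GC0643 overexpression, against 13.8, 16.0 and 17.6 in Vector control. JUND made up 61.1% to 65.2% of the JUN family sum in GC0643 overexpression and 61.0% to 64.5% in Vector control. The share of JUN itself was 6.91%, 3.98% and 4.99% in GC0643 overexpression, against 6.15%, 4.99% and 10.3% in Vector control, so that replicate 3 of Vector control held the largest share. In the FOS family, FOSL2 took 37.9% to 67.0% in GC0643 overexpression and 46.0% to 59.4% in Vector control, and FOS most of the remainder.

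JUN, the founding subunit of AP-1 and a substrate of the JNK kinases, is a gene of 1 exon on chromosome 1 of GRCh38 (58776845 to 58784048, minus strand; ENSG00000177606). It stood at 28.6, 16.3 and 18.9 CPM in GC0643 overexpression replicates 1 to 3, against 27.5, 19.4 and 73.8 CPM in Vector control. The raw counts were 614, 346 and 383 in GC0643 overexpression, against 559, 399 and 1775 in Vector control. Vector control replicate 3 was thus 3.33 times the mean of the other 5 libraries, and those 5 lay between 16.3 and 28.6 CPM with the groups interleaved. JUN had a log2 fold change of −0.92 (SE 0.36, 95% interval −1.68 to −0.16), an unadjusted p under 0.05 and an adjusted p of 0.26 from edgeR's quasi-likelihood test. Without Vector control replicate 3 it was −0.15 (95% interval −0.49 to 0.20), and without GC0643 overexpression replicate 2 it was −0.77 (SE 0.41), neither with an unadjusted p under 0.05. Leaving out any of the other 4 libraries gave −0.84 to −1.25 with an unadjusted p under 0.05. The adjusted p of JUN was under 0.05 in 2 alternative fits, without Vector control replicate 2 (adjusted p = 0.0162, edgeR) and with no filter on low counts (adjusted p = 9.04e-06, edgeR). With all 6 libraries and the filter, JUN was not past the adjusted threshold.

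JUNB and JUND are relatives of JUN with weaker and context-dependent activity, and JUND is typically the one present in resting cells. JUNB, on chromosome 19 (12791486 to 12793315, plus strand, 1 exon), had 66.0, 70.9 and 72.0 CPM in GC0643 overexpression, against 82.7, 71.6 and 102 CPM in Vector control. Its groups overlapped narrowly, since Vector control replicate 2 lay just under GC0643 overexpression replicate 3. JUNB differed by −0.29 on the log2 scale (SE 0.14, adjusted p = 0.273, edgeR), and by −0.16 without Vector control replicate 3. JUND, also on chromosome 19 (18279694 to 18281622, minus strand, 1 exon), had 159, 158 and 137 CPM in GC0643 overexpression, against 162, 143 and 275 CPM in Vector control. Here 5 libraries lay within 137 to 162 CPM and Vector control replicate 3 was 1.81 times their mean. JUND differed by −0.35 on the log2 scale (SE 0.19, adjusted p = 0.308, edgeR), and by −0.01 without Vector control replicate 3 (95% interval −0.27 to 0.24).

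FOS, the subunit that gives the classical AP-1 dimer its strong transcriptional activity, lies on chromosome 14 (75278826 to 75282230, plus strand). It had 8.68, 3.21 and 11.98 CPM in GC0643 overexpression, against 10.2, 6.60 and 9.31 CPM in Vector control. The highest and the lowest library were both GC0643 overexpression libraries, 3.73 times apart, and the Vector control libraries lay between them. The counts behind the extremes were 243 in replicate 3 and 68 in replicate 2 of GC0643 overexpression. Between the groups FOS differed by −0.13 on the log2 scale (SE 0.33, adjusted p = 0.822, edgeR), and by 0.23 when GC0643 overexpression replicate 2 was left out. Its direction thus rests on that library.

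FOSB, a close relative of FOS on chromosome 19 (45467995 to 45475179, plus strand), was counted 35, 25 and 17 times in GC0643 overexpression, against 21, 15 and 43 times in Vector control. That corresponds to 1.63, 1.18 and 0.838 CPM in GC0643 overexpression, against 1.03, 0.728 and 1.79 CPM in Vector control. Each group spanned most of the range of the other, and FOSB had 0.03 as its log2 fold change (SE 0.38, adjusted p = 0.973, edgeR), which ranged from −0.24 to 0.46 when 1 library was left out. FOSL1, which encodes a FOS-related protein without the strong activation domain of FOS, lies on chromosome 11 (65892049 to 65900573, minus strand). With 17, 7 and 8 counts in GC0643 overexpression, against 8, 9 and 8 in Vector control, it did not pass the filter on low counts and was left out of the tests. A fit without that filter gave it 0.39 as its log2 fold change (SE 0.55, adjusted p = 0.74, edgeR), and a difference was not detectable at these counts.

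FOSL2, above FOS in CPM per kilobase in 4 of 6 libraries, is a further FOS-related gene on chromosome 2 (28392448 to 28417317, plus strand). It had 37.6, 27.7 and 25.1 CPM in GC0643 overexpression, against 30.8, 25.8 and 50.1 CPM in Vector control. GC0643 overexpression replicate 1 came second to Vector control replicate 3, and the other 4 libraries lay between 25.1 and 30.8 CPM. FOSL2 had −0.24 as its log2 fold change (SE 0.22, adjusted p = 0.515, edgeR), which turned to 0.09 without Vector control replicate 3.

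ATF3, a stress-induced protein that can pair with JUN proteins and often represses, lies on chromosome 1 (212565334 to 212620777, plus strand). It had 34.5, 15.3 and 15.7 CPM in GC0643 overexpression, against 21.5, 15.9 and 55.4 CPM in Vector control. In each group 1 library was well above the others, replicate 1 of GC0643 overexpression and replicate 3 of Vector control, and Vector control replicate 3 was 2.69 times the mean of the other 5 libraries. ATF3 had −0.51 as its log2 fold change (SE 0.38, adjusted p = 0.431, edgeR). It was 0.22 when Vector control replicate 3 was left out and −0.998 when GC0643 overexpression replicate 1 was, so that its size and direction differed with these 2 libraries. A centred log2 CPM profile can be set against another by the root mean square of their differences over the 6 libraries. By this measure JUN and ATF3 differed by 0.228, whereas JUN and FOS differed by 0.73.

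EGR1 lies on chromosome 5 (138465479 to 138469303, plus strand, 2 exons) and had 38.4, 19.0 and 30.6 CPM in GC0643 overexpression, against 41.4, 29.3 and 39.5 CPM in Vector control. Its highest library was Vector control replicate 1 and its lowest GC0643 overexpression replicate 2, the library in which FOS was lowest too. EGR1 had −0.33 as its log2 fold change (SE 0.21, adjusted p = 0.372, edgeR). Without Vector control replicate 3 it was −0.28 (95% interval −0.62 to 0.06). Leaving out GC0643 overexpression replicate 2 gave −0.10, and leaving out replicate 1 of that group gave −0.57, past an unadjusted p of 0.05 in that fit. IER2, on chromosome 19 (13150411 to 13154911, plus strand, 2 exons), had 86.3, 73.8 and 70.9 CPM in GC0643 overexpression, against 89.4, 75.5 and 115 CPM in Vector control. Replicates 1 and 2 of the groups lay close together, and Vector control replicate 3 was 1.46 times the mean of the other 5 libraries. IER2 differed by −0.28 on the log2 scale (SE 0.15, adjusted p = 0.31, edgeR), and by −0.11 without Vector control replicate 3.

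**Figure D2:**
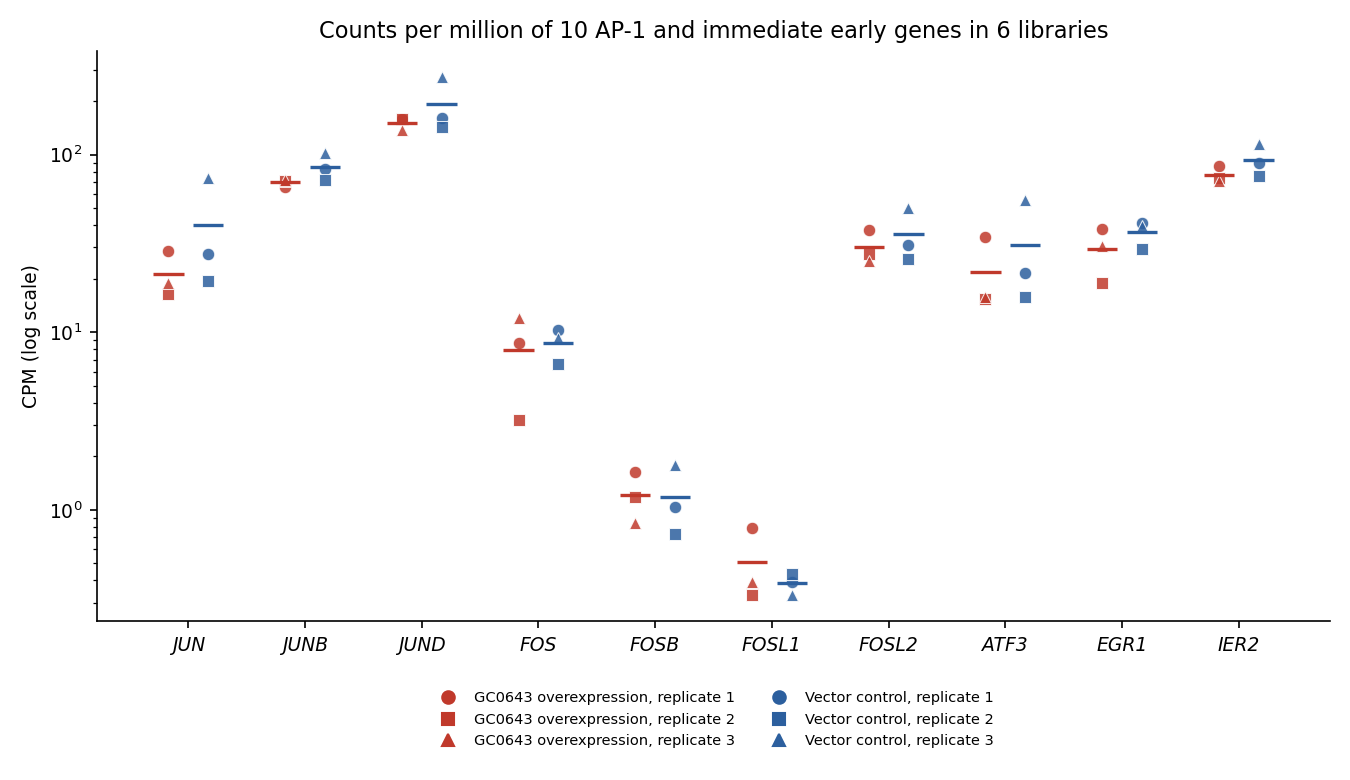
CPM (log scale) of the 10 genes in each library, GC0643 overexpression in red left of Vector control in blue. Symbols give the replicate and horizontal bars the group mean of 3 libraries. For JUN the triangle of Vector control replicate 3, at 73.8 CPM, stands above 5 libraries that lie between 16.3 and 28.6 CPM, and for FOS the lowest point is GC0643 overexpression replicate 2 at 3.21 CPM.

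Of the 9 members tested, 8 had a negative log2 fold change and FOSB a positive one of 0.03. Over all genes tested, 48.1% were on the negative side and 51.9% on the positive side. The median over the members was −0.29, against 0.02 over all genes tested. At an unadjusted p under 0.05, JUN alone was lower and no member was higher. That rule called 5.26% of all genes lower and 13.1% higher (18.3% in either direction). No member passed an adjusted p under 0.05 with edgeR's quasi-likelihood test, with its likelihood ratio test, with DESeq2 or with limma voom, and 0% of all genes did with the quasi-likelihood test. The study called genes at a fold change beyond 1.5 with p under 0.05. JUN met these thresholds on the lower side, as did 0.871% of all genes, and no member met them on the higher side, as 1.6% of all genes did. The 2 groups overlapped for all 10 members, whereas they were apart for 11.8% of the genes tested with GC0643 overexpression higher and for 10.5% with it lower.

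**Figure D3:**
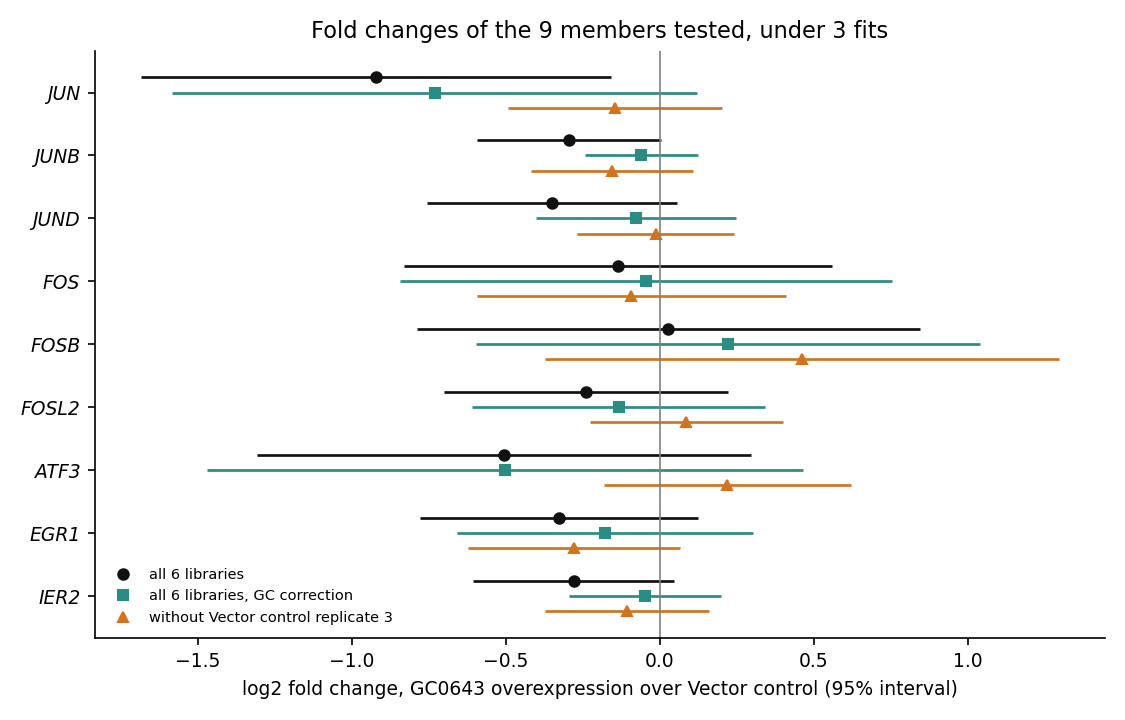
Log2 fold changes, GC0643 overexpression over Vector control, of the 9 members tested, with all 6 libraries, with a correction for GC content, and without Vector control replicate 3. Lines are 95% intervals. The interval of JUN lies below 0 with all libraries (−1.68 to −0.16) and includes 0 in both of the other fits.

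Most members were highest in Vector control replicate 3. That library was the highest of 6 for 7 of the 9 members tested, the exceptions being FOS, highest in GC0643 overexpression replicate 3, and EGR1, highest in Vector control replicate 1. It was the highest for 28.6% of all genes tested and for 57.3% of the 6248 genes with a transcript GC content of 55% or more. It exceeded 1.5 times the mean of the other 5 libraries for JUN, ATF3, JUND, FOSL2 and FOSB, that is 5 of 9 members, against 7.35% of all genes and 14.1% of those GC-rich genes. The median member, as log2 CPM minus the gene's mean over 6 libraries, stood at 0.17, −0.20 and −0.29 in GC0643 overexpression replicates 1 to 3, against 0.05, −0.23 and 0.63 in Vector control. Vector control thus held the highest library median, while its replicate 2 lay between GC0643 overexpression replicates 2 and 3. GC0643 overexpression replicate 2 was the lowest library for 4 members and GC0643 overexpression replicate 3 for 3, against 9.31% and 14% of all genes tested.

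**Figure D4:**
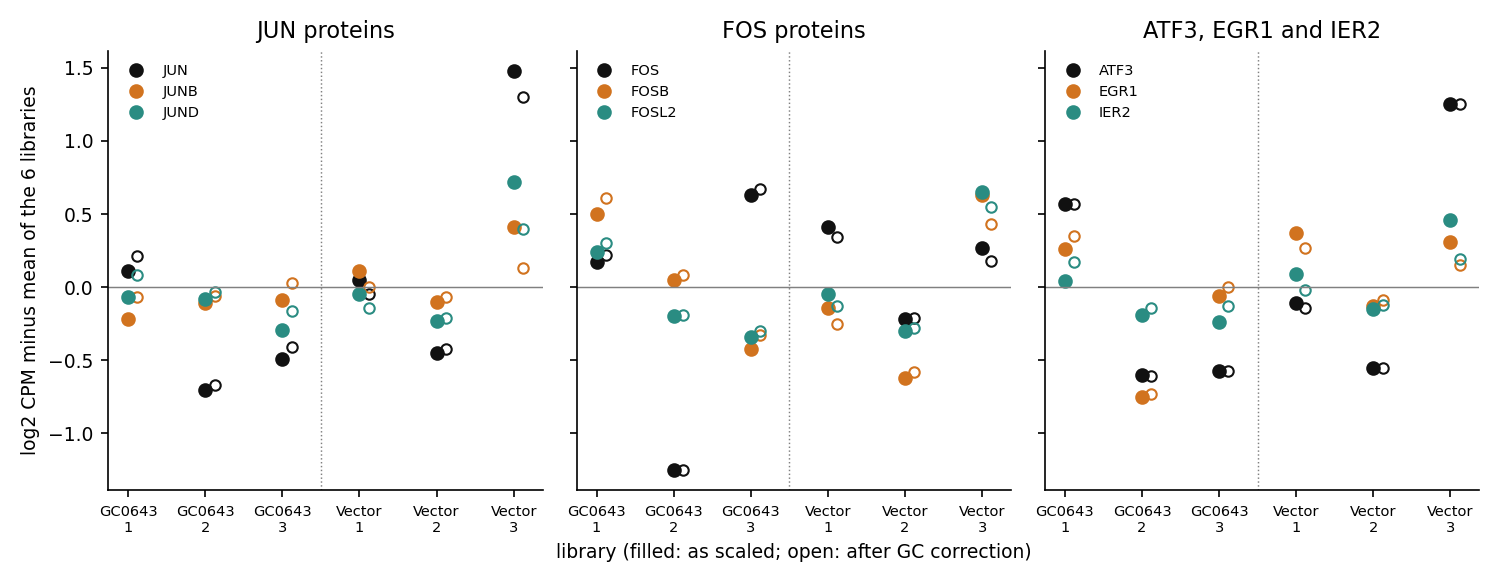
Log2 CPM of each member tested minus its mean over the 6 libraries, by library, with GC0643 overexpression replicates on the left and Vector control replicates on the right. Filled points are as scaled and open points after the correction for GC content. In Vector control replicate 3 every member lies above its mean, between 0.27 (FOS) and 1.48 (JUN), and FOS falls to −1.25 in GC0643 overexpression replicate 2.

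The members are GC-rich as a group, and fold changes followed GC content over all genes. Transcript GC content ranged from 50.4% in ATF3 to 69.9% in JUND, and the median member stood at the 73.8th percentile of the genes tested. Across the genes tested, which are not independent replicates, Spearman's rho of the log2 fold change with GC content was −0.67. The 6248 genes at 55% GC or more had a median log2 fold change of −0.20, beside −0.29 for the members. After a loess correction for GC content within each library, the log2 fold changes of JUNB, JUND and IER2 were −0.06, −0.08 and −0.05, and the median over the members was −0.08. No member then had an unadjusted p under 0.05 in edgeR's test, against 6.41% of all genes. Vector control replicate 3 still had the highest median over the members after the correction, at 0.40, and was the highest library for 6 of the 9, against 25.1% of all genes. JUN and ATF3 kept larger values after the correction, −0.73 (95% interval up to 0.12) and −0.50 (up to 0.46). In Vector control replicate 3, the centred log2 CPM of JUN was 1.48 before and 1.3 after the correction, that of ATF3 was 1.25 both times, and that of JUND was 0.72 before and 0.40 after. The deviation of FOS in GC0643 overexpression replicate 2 was −1.25 both times. The part that GC content and this library had in the members' fold changes was not tested further.

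**Figure D5:**
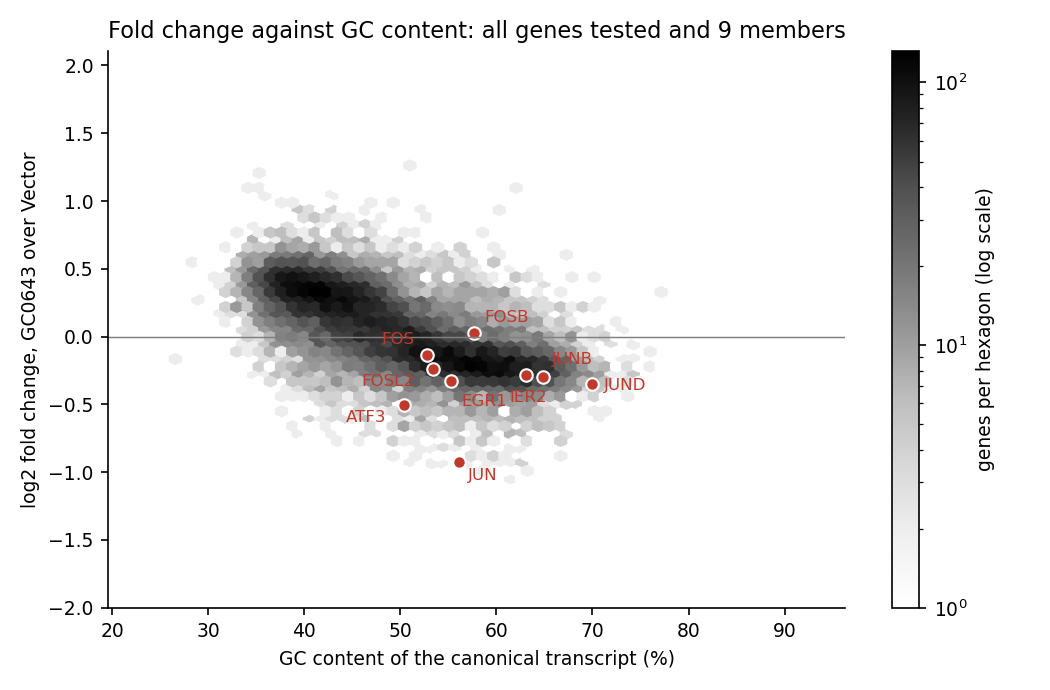
Log2 fold change, GC0643 overexpression over Vector control, against the GC content of the canonical transcript for 19364 genes tested that have a GC value (grey hexagons, darker with more genes, log colour scale), with the 9 members in red. A further 9 genes lie outside the plotted range. JUND, IER2 and JUNB lie within the band of other genes of their GC content, while JUN, at −0.92, lies at its lower edge.

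The calls moved with the libraries in the fit. Without Vector control replicate 3, 0 of the 9 members had an unadjusted p under 0.05 (edgeR), against 10.4% of all genes, and 0.146% of all genes but no member passed the adjusted p. Without Vector control replicate 2, 7 members had an unadjusted p under 0.05 with 37.1% of all genes, and 4 members an adjusted one with 19.1% of all genes. These 4 were JUN (log2 fold change −1.25, adjusted p = 0.0162), JUNB (−0.41, 0.0354), JUND (−0.52, 0.0477) and IER2 (−0.41, 0.0477), all lower in GC0643 overexpression (edgeR). With replicate 2 left out and GC content corrected for as well, an alternative chosen after the data were seen, 0% of genes passed the adjusted threshold (edgeR), and 1 member and 12% of all genes had an unadjusted p under 0.05. The GC0643 overexpression libraries mattered too. Without replicate 1 of that group, JUN, ATF3 and EGR1 had an unadjusted p under 0.05, with 9.35% of all genes, and without its replicate 2 no member did (edgeR), against 14.7% of all genes. Which members were called thus depended on which libraries of either group were in the fit.

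Some members share their position with other genes, and whether the counting used strand is not stated for these libraries. The exons of JUNB overlap those of HOOK2 on the opposite strand, a gene for a protein that links cargo to microtubules. HOOK2 had 53.7, 51.1 and 54.4 CPM in GC0643 overexpression, against 61.0, 55.1 and 69.3 CPM in Vector control. Over IER2 lies an antisense long non-coding RNA, ENSG00000267598, with 57.3, 51.3 and 47.1 CPM in GC0643 overexpression, against 59.1, 49.3 and 80.3 CPM in Vector control. Its order of libraries nearly followed that of IER2, and both had a log2 fold change of −0.28, so that reads of the pair may not be told apart. ERCC1, a DNA repair gene, overlaps FOSB without shared exons and had a log2 fold change of −0.18, not past an unadjusted p of 0.05. A further antisense RNA over IER2, ENSG00000287296, was not analysed here. FOSL2-AS1 and ENSG00000270640, both within FOSL2, had at most 5 counts in any library.

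The genes outside the members with the library pattern most like that of JUN were AKNA, TRIB3 and SESN2, out of 11043 genes with a mean of at least 10 CPM. Their root mean square differences from JUN over the 6 libraries were 0.104, 0.135 and 0.146, where JUN itself had an SD of 0.79 on the same log2 scale. AKNA encodes a protein with an AT-hook, and TRIB3 and SESN2 encode a pseudokinase and a sestrin that are known as stress-induced. In Vector control replicate 3 they stood 1.43, 1.46 and 1.35 above their means in log2 CPM, near the 1.48 of JUN. FOS was nearest to the member EGR1, at a difference of 0.355 beside its own SD of 0.676, and the nearest genes outside the members were CDHR5, RN7SL1 and ACSS3 at 0.392, 0.43 and 0.445. Outside the members, those nearest to EGR1 were the gene ENSG00000278144, the pseudogene FAR2P1 and the gene ENSG00000278050, with differences between 0.187 and 0.191 and an SD of 0.421 for EGR1. These likenesses rest on 6 libraries that share their differences in GC content.

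Other genes of the same response were read from lists of genes by role. The counts per list stand beside 13.1% of all genes tested that were higher and 5.26% that were lower at an unadjusted p under 0.05 (edgeR). The groups were apart for 11.8% of all genes tested with GC0643 overexpression higher and for 10.5% with it lower. Of the list genes named below, they were apart for SGK1, ATF2, CREB1, MAPK8, ELK3, MAP3K1, CD44, TIA1 and COP1 (higher). They were also apart for JDP2 (lower). Of 36 further immediate early genes, 32 were tested. Their median log2 fold change was −0.09, with 11 above 0 and 21 below. Past an unadjusted p of 0.05 were 1 higher gene (SGK1) and 1 lower gene (ID1). SGK1, a kinase induced by serum and glucocorticoids, had 30.6, 23.8 and 24.3 CPM in GC0643 overexpression, against 17.9, 19.3 and 19.0 CPM in Vector control. Its groups did not overlap, and SGK1 had 0.49 as its log2 fold change (SE 0.15, adjusted p = 0.26, edgeR), also without Vector control replicate 3. ID1, an inhibitor of helix-loop-helix factors, had 154, 141 and 137 CPM in GC0643 overexpression, against 179, 148 and 301 CPM in Vector control (log2 fold change −0.54, and −0.19 without Vector control replicate 3). RHOB, a small GTPase, and MCL1, a survival protein of the BCL-2 family, had log2 fold changes of −0.35 and 0.33, neither with p under 0.05. Vector control replicate 3 was the highest library for 19 of the 32 genes. The same library was the highest for 28.6% of all genes tested and for 57.3% of the GC-rich genes described above.

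Among the other leucine zipper genes, 14 of 17 were tested, 6 with log2 fold changes above 0 and 8 below, at a median of −0.08. ATF2 and CREB1 were higher and JDP2 was lower at an unadjusted p under 0.05, and no adjusted p was below 0.26 (edgeR). JDP2 encodes a repressor that pairs with JUN proteins. It had 62.8, 61.2 and 61.4 CPM in GC0643 overexpression, against 81.9, 75.0 and 120 CPM in Vector control. The groups did not overlap, and the log2 fold change of JDP2 was −0.58 (SE 0.16, adjusted p = 0.26, edgeR). It was −0.52 with GC correction and −0.35 without Vector control replicate 3. ATF2, a partner of JUN, had 39.7, 27.2 and 32.9 CPM in GC0643 overexpression, against 20.3, 26.7 and 19.3 CPM in Vector control, with a log2 fold change of 0.59 that was 0.23 with GC correction. CREB1, a cyclic AMP responsive factor, had a log2 fold change of 0.50 (0.12 with GC correction), and its relative ATF1 one of 0.34 (−0.01 with GC correction).

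Upstream of these genes stand the MAP kinases, which activate JUN and ternary complex factors, and serum response factor with its cofactors. All 28 genes of this list were tested, and their log2 fold changes had a median of 0.08, with 17 above 0 and 11 below. In the uncorrected fit 5 were higher and another 3 lower at p under 0.05 before adjustment. With GC correction 0 of the 28 had an unadjusted p under 0.05 (edgeR), against 6.41% of all genes. MAPK8, which encodes the kinase JNK1, had 24.5, 20.7 and 24.9 CPM in GC0643 overexpression, against 15.5, 20.4 and 14.5 CPM in Vector control (log2 fold change 0.48, adjusted p = 0.26 from edgeR, 0.13 with GC correction). The log2 fold changes of ELK3, a ternary complex factor, and MAP3K1, a kinase upstream of JNK, were 0.57 and 0.48, and 0.31 and 0.22 with GC correction.

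Of 28 genes described as AP-1 targets, only 16 passed the filter on low counts. Among them 2 lay above 0 and 14 below, at a median log2 fold change of −0.19 (−0.04 with GC correction). CD44 was higher and HMGA1 was lower at an unadjusted p under 0.05. CD44, a hyaluronan receptor, had 58.4, 54.3 and 57.1 CPM in GC0643 overexpression, against 45.6, 47.3 and 47.9 CPM in Vector control, with groups that did not overlap. CD44 differed by 0.27 on the log2 scale (adjusted p = 0.267, edgeR), and by 0.05 with GC correction. HMGA1, a chromatin protein, had a log2 fold change of −0.25 (−0.04 with GC correction). DKK1, a WNT antagonist, and AXL, a receptor kinase, had log2 fold changes of −0.60 and −0.32, neither with p under 0.05 in that fit, although DKK1 had −0.85 with GC correction, past an unadjusted p of 0.05.

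The RNAs and proteins of FOS and JUN are removed quickly by deadenylation and by ubiquitin ligases. All 13 genes listed for this turnover were tested, 8 with log2 fold changes above 0 and 5 below, at a median of 0.14. TIA1, ITCH and CNOT1 were higher at an unadjusted p under 0.05, 0 genes were lower, and the smallest adjusted p was 0.26 (edgeR). With GC correction 0 genes of this list were higher and 1 was lower at that threshold (edgeR), against 6.41% of all genes in either direction. TIA1, a protein that binds AU-rich RNA, had 75.5, 69.0 and 78.6 CPM in GC0643 overexpression, against 50.1, 66.7 and 47.4 CPM in Vector control, a log2 fold change of 0.44 that was 0.09 with GC correction. ITCH, a ubiquitin ligase of JUN proteins, CNOT1, the scaffold of the deadenylase complex, and COP1, a ubiquitin ligase of JUN, had log2 fold changes of 0.45, 0.31 and 0.28, and 0.13, 0.13 and 0.19 with GC correction. For TIA1, ITCH and CNOT1, Vector control replicate 2 lay closer to the GC0643 overexpression libraries than the other Vector control libraries did.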

How the data were processed

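Libraries of HGC-27 RNA, 3 for GC0643 overexpression and 3 for Vector control, were prepared with the NEBNext Ultra RNA kit. Per the submitters' processing notes, the authors used Trimmomatic 0.32, HISAT2 2.1.0 and featureCounts 2.0.0 with GRCh38. The deposited values are raw counts per Ensembl gene, with no normalisation. How featureCounts was set for these libraries, for instance whether it used strand, is not given in the sources used here. For its RNA-seq of tumour tissue the paper lists the options -p and -O and counting over exons, and names no strand option. Of 58825 genes, 58472 were matched by ID to GENCODE 44.

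Low counts were removed with filterByExpr, TMM factors were computed, and genes were tested with edgeR 4.0.16 (quasi-likelihood test, group as the only term) in R 4.3.3. The biological coefficient of variation was 14.8%. For the correction, centred log2 CPM (prior count 1) was regressed on transcript GC content by loess (span 0.3) in each library and the curve was used as an offset. The members and lists, the promoter motifs among them, were chosen with earlier results of these data known. Named genes are all members, the 4 genes per list that had the smallest unadjusted p, genes that overlap a member, and the 3 genes nearest in library pattern to FOS, JUN and EGR1. 1 gene that this rule names is not reported here.

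Alternatives were the likelihood ratio test, DESeq2 1.42.0, limma voom (limma 3.58.1), scaling by DESeq2's size factors or by totals alone, omission of the filter, a filter at CPM over 1 in 3 or more libraries, only protein-coding genes, a block for the replicate number, corrections for GC content or length, and leaving out each of the 6 libraries. The code was tested on simulated counts. Figures were drawn with matplotlib 3.10.9 in Python 3.11.15.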

Additional observations from a re-analysis of the deposited data

How the results depend on the processing

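Among the members, JUN, JUNB and EGR1 had a negative log2 fold change under all 20 alternatives. The sign alone says little of size, since JUN had −0.021, JUNB −0.001 and EGR1 −0.162 with GC correction and without Vector control replicate 3. The number of members at an unadjusted p under 0.05 (1 in the reported fit) was 0 with limma voom, 2 with DESeq2's size factors, 6 with no filter, 2 with CPM over 1, 2 with protein-coding genes only, 0 with GC correction, 0 with GC correction and without Vector control replicate 3 (chosen after the data were seen), and 0 to 7 when a library was left out. DESeq2 also called 1 member, but this was JUNB (unadjusted p = 0.0354, DESeq2) and not JUN. The unadjusted p of JUN was 0.126 with DESeq2 and 0.0587 with limma voom. The number at an adjusted p under 0.05 (0 in the reported fit) was 1 with no filter, namely JUN (adjusted p = 9.04e-06), and 0 to 4 when a library was left out. The number past the study's thresholds (1) was 0 with DESeq2, with voom, with GC correction, and with GC correction and without Vector control replicate 3, and 0 to 2 when a library was left out. The median of the members ranged from −0.42 to 0.05.

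Genes of the other lists at an unadjusted p under 0.05 numbered 18 in the reported fit, 5 with GC correction, 6 with GC correction and without Vector control replicate 3, and 7 to 48 when a library was left out. Over all genes, the calls at an adjusted p under 0.05 (0) were 16 with the likelihood ratio test, 1 with DESeq2, 1 with DESeq2's size factors, 224 with no filter, 3 with GC correction and without Vector control replicate 3, and 0 to 3813 when a library was left out.

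FOSB changed sign to −0.003 with DESeq2's size factors and −0.058 with length correction, and ranged from −0.24 to 0.46 when a library was left out. When a library was left out, FOS ranged from −0.55 to 0.23, FOSL2 from −0.43 to 0.086 and ATF3 from −0.998 to 0.22. With GC correction and without Vector control replicate 3, FOSL2 had 0.17, JUND 0.14, ATF3 0.24 and IER2 0.048. The cause of these changes was not tested.

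The replicate numbers showed no pairing by correlation. The deviations of same-numbered libraries correlated at −0.21, −0.03 and −0.31, and no library correlated best with its own number. With 3 libraries a group, these correlations cannot decide whether same-numbered libraries shared a culture or a preparation. With the replicate block, JUN had a log2 fold change of −0.71 (edgeR, adjusted p = 0.215) and stayed the 1 member at an unadjusted p under 0.05, no member's call changed, and 24 genes in all passed the adjusted p. With the replicate block and GC correction, 0 members had p under 0.05, 0 met the study's thresholds, 3 genes of the other lists had p under 0.05, and 1 gene passed the adjusted p.

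With 3 libraries a group and a within-group SD of 0.35 for the members' library median (log2), the intervals of the members are wide. FOSB and FOSL1 have too few counts for a difference of moderate size to be detected.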
